A study of Homo sapiens with 12 samples.

Results

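Chromatin remodellers and histone-modifying enzymes were taken as the genes whose symbol in the platform annotation begins with SMARC, ARID, KMT, KDM, SETD or HDAC, or with CHD, KAT or BRD and a digit. The rule used names only and no measured value. It found 94 of the 15329 listed probes, which named 78 of the 9647 genes with a single symbol. Of the 78 genes, 63 had 1 probe and 15 had several, and each gene was represented by its brightest probe, the one with the highest mean over the 12 arrays.

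The arrays profiled input RNA, and RNA recovered on streptavidin beads, from HEK293T cells given a biotin-tagged synthetic microRNA. HEK293T is a human embryonic kidney line that carries the SV40 large T antigen. There were 4 groups of 3 arrays: the pull-down with miR-199a-5p, the input RNA of cells given miR-199a-5p, the pull-down with miR-424-3p, and the input RNA of cells given miR-424-3p. In all 4 groups the cells received 200 pmol of duplex with a lipid reagent and were collected after 24 h, so that inputs as well as pull-downs carried the added duplex. Mock-transfected controls that the study describes were not used here. The study names RNA held by the beads themselves, or by endogenous biotin, as possible false positives, which it thinks fairly uncommon. The 4 groups hold no pull-down without a tagged microRNA, so such RNA was not told apart. Below, capture means recovery on the beads in a pull-down. The question asked of each gene is whether its transcript was over- or under-represented in a pull-down relative to the input of the same duplex. The microRNA is a synthetic duplex at a dose set by the transfection, and one transformed cell line was used. The name miR-199a-5p is that of the labels, although one supplementary legend of the study writes miR-199b-5p.

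DNA is wound on histones, and 2 kinds of protein control access to it. ATP-driven remodellers of the SWI/SNF, ISWI and CHD families slide, eject or exchange nucleosomes, whereas acetyltransferases, deacetylases, methyltransferases and demethylases add and remove marks on histone tails that proteins with bromodomains and other reader domains recognise. A microRNA, loaded in an Argonaute protein, is thought to bind transcripts mainly through its seed, bases 2 to 8. From pull-downs with other microRNAs, the study proposes that imperfect sites for the central region of a microRNA are common as well. How the transcripts of these families came to be captured was not examined here.

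The mature sequences of both microRNAs, from RefSeq on GRCh38.p14, are shown because the comparisons below turn on which of them was used as the bait. The seed is in capitals.
hsa-miR-199a-5p: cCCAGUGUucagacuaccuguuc
hsa-miR-424-3p: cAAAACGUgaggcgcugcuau
The first is 23 bases long and is annotated on the minus strand at chr19:10817469-10817491 (MIR199A1) and at chr1:172144592-172144614 (MIR199A2). The second has 21 bases and lies on the minus strand at chrX:134546644-134546664 (MIR424), where it is the passenger arm of the hairpin that also gives miR-424-5p. Their GC content was alike, at 52.2% and 52.4%, but the seeds differ: that of miR-199a-5p holds 4 G or C bases and that of miR-424-3p holds 2. Transcript sequences were not used here, so sites for either seed were not looked for.

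All values are normalized log2 values from Illumina HT-12 arrays, and a difference of 1 is a doubling. The transformation used by the authors compresses differences of dim probes, so fold changes of probes with values near 8 are understated. Arrays of one group correlated at 0.983 to 0.994 over all probes, and pull-downs correlated with their own inputs at 0.917 to 0.950. Of 7 HEK293T marker genes 6 were measured, with group means of 12.44 to 14.07 for vimentin (VIM) and 8.84 to 9.17 for keratin KRT8. Those of NEFM and INA were 9.32 to 10.18 and 9.32 to 10.12. NEFL and KRT18 were dimmer, at 8.22 to 8.74 and 7.68 to 8.62. Of 11 markers of blood, fibroblasts, endothelium and liver, 9 are not listed. The others, COL1A1 and ALB, had group means of 7.77 to 8.03 and 8.02 to 8.42, beside a lowest input mean of 7.70 for any probe. The ranges of NEFL and KRT18 overlapped that of ALB, so these levels do not separate the cell types cleanly. The labels do not say that the arrays of a group came from separate cultures, but the same supplementary legend describes the transfections as independent replicates, and P-values measure the spread between these arrays. Values after a ± sign are standard errors of a log2 fold change unless given as SD. A gene was called at a limma adjusted P under 0.05, tested in each direction and adjusted over all probes.

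In the miR-199a-5p pull-down 25 of the 78 chromatin genes were higher than in input and 6 were lower. Among all genes 29.9% were higher and 20.1% lower, so the 32.1% of chromatin genes called higher was near the background while the 7.69% called lower lay below it. In the miR-424-3p pull-down 35 were higher and 11 lower (44.9% and 14.1%), against 30.3% and 25.7% of all genes. The median log2 fold change over the 78 genes was 0.15 for miR-199a-5p and 0.17 for miR-424-3p, beside 0.06 and 0.03 over all genes. Changes of at least 1 log2 unit were called in 2 chromatin genes with miR-199a-5p, both higher (3% of all genes higher and 2.09% lower), and in 9 with miR-424-3p, 8 higher and 1 lower (5.6% and 3.76% of all genes). All 3 pull-down arrays lay above all 3 inputs for 28 chromatin genes in the miR-199a-5p set and 37 in the miR-424-3p set (32.7% and 34.1% of all genes), and below them for 9 and 13 (23.3% and 30.1% of all genes). Among the 47 chromatin genes with a mean of at least 9, miR-199a-5p gave 18 higher and 4 lower calls (34.8% and 22.4% of all genes in that range), and miR-424-3p gave 21 and 6 (34.7% and 29.7%).

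**Figure D1:**
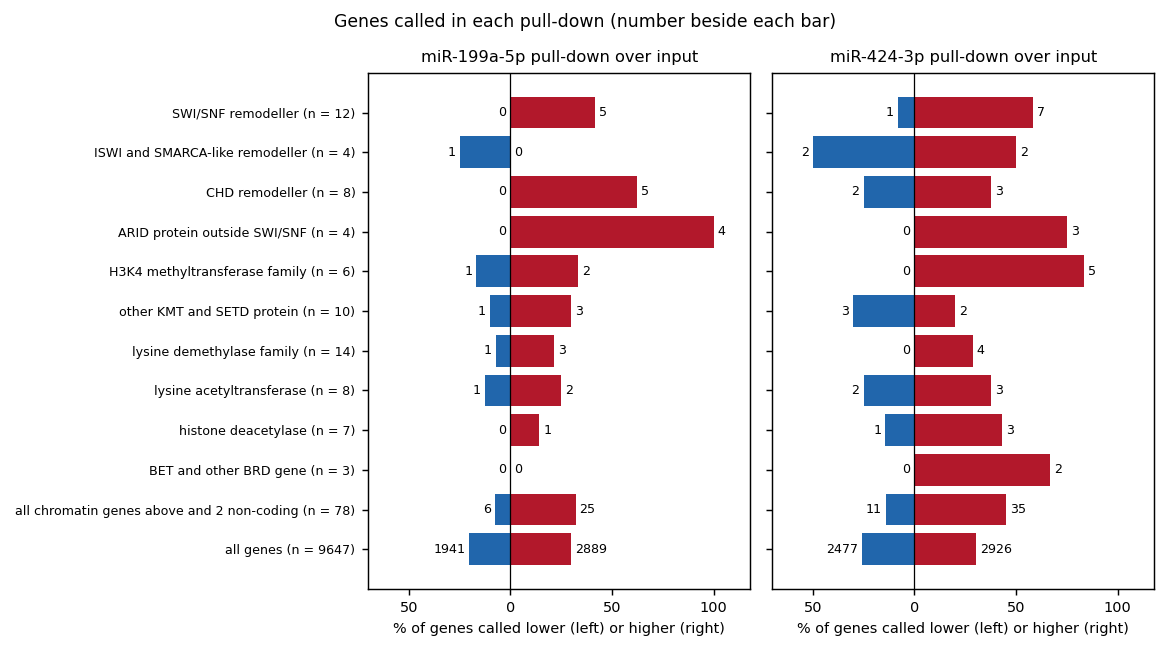
Percentage of genes called lower (left of 0) or higher (right of 0) in each pull-down relative to its input, for 10 role groups, the 78 chromatin genes and all 9647 genes, with the number of genes beside each bar. By the brightest probes, all 4 ARID proteins outside SWI/SNF were higher with miR-199a-5p, although another ARID4B probe was lower. In the H3K4 methyltransferase family 5 of 6 members were higher with miR-424-3p. The role groups were drawn up after the values were seen.

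**Figure D2:**
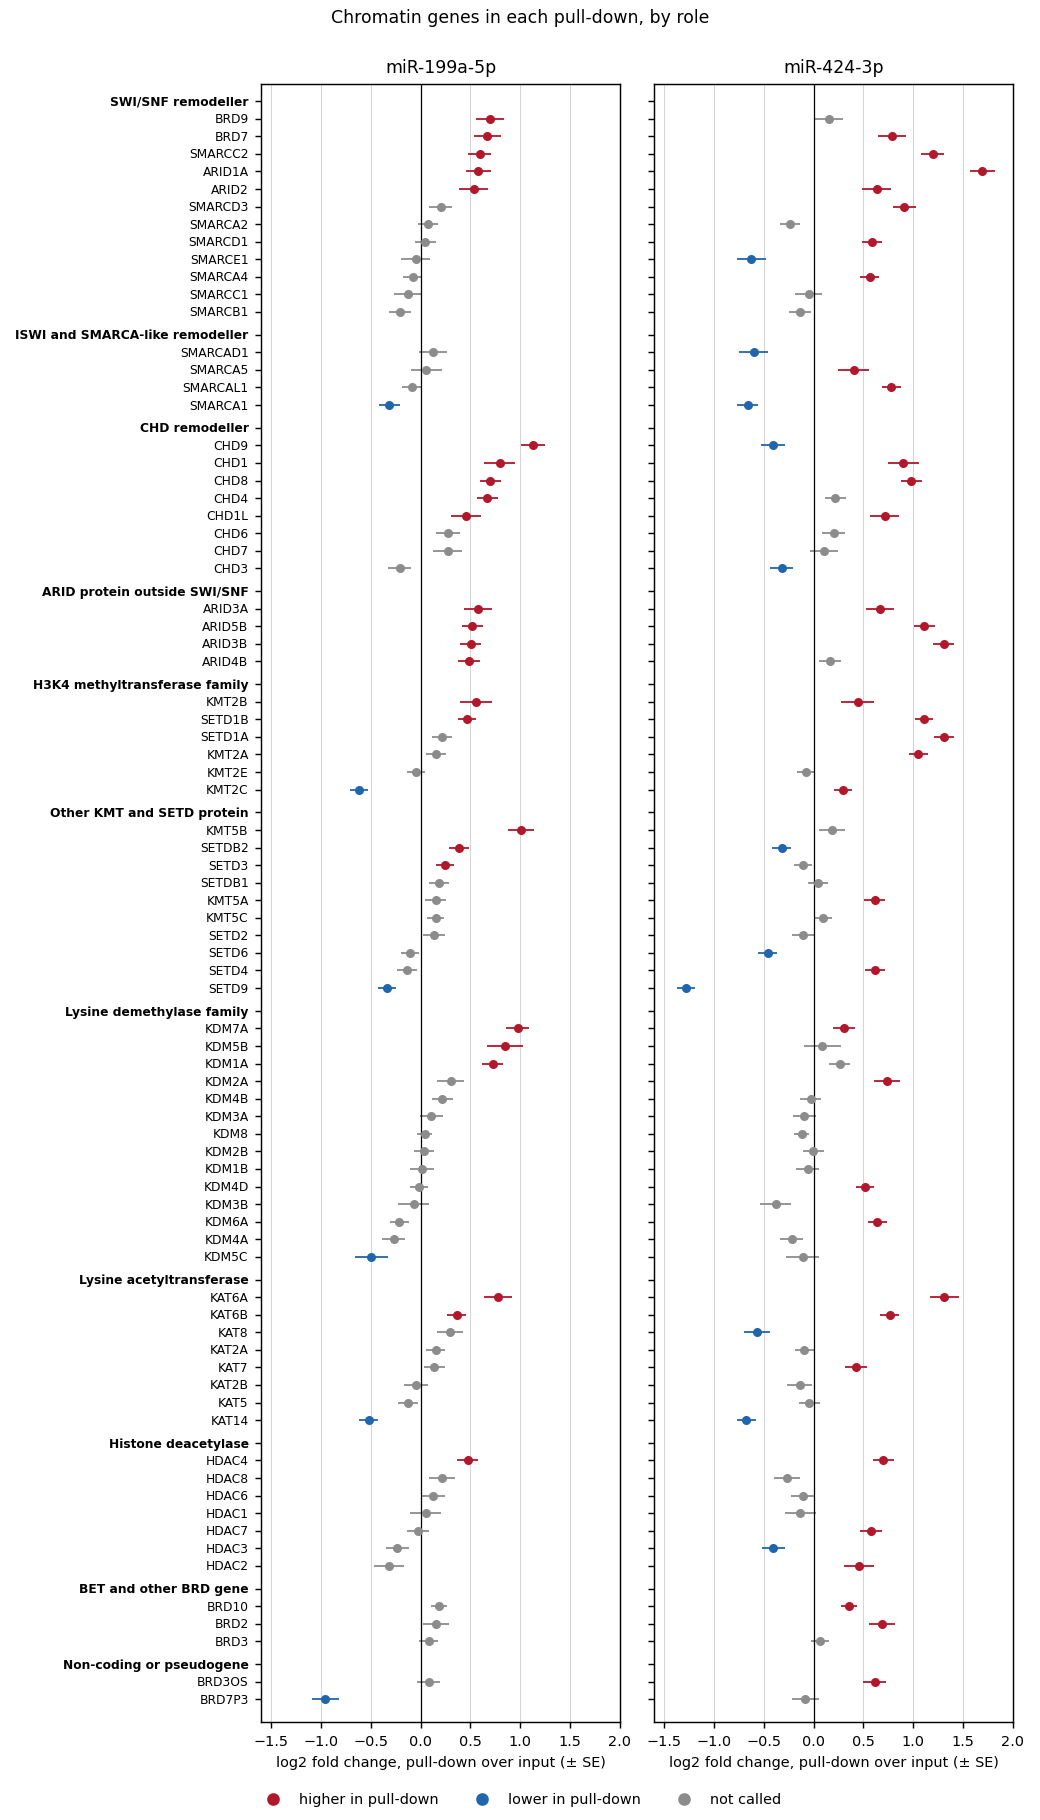
Log2 fold change (x axis, points) with its standard error (lines) for each of the 78 genes in the pull-down with miR-199a-5p (left) and miR-424-3p (right), grouped by role and sorted within a group by the miR-199a-5p value. Values reached 1.13 for CHD9 on the left and 1.69 for ARID1A on the right, and the lowest were -0.96 for BRD7P3 and -1.28 for SETD9.

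The SWI/SNF complexes, which evict and slide nucleosomes, were represented by 12 genes, of which 5 were higher and 0 lower with miR-199a-5p, and 7 higher and 1 lower with miR-424-3p. For this and the groups below, the shares of all genes were 29.9% higher and 20.1% lower with miR-199a-5p. With miR-424-3p they were 30.3% and 25.7%. The role groups were drawn up after the values were seen, so their counts are descriptions only. ARID1A, the DNA-binding subunit of the canonical complex, measured 10.79, 10.83 and 11.19 in the miR-199a-5p pull-down, against 10.37, 10.22 and 10.49 in its input. In the miR-424-3p pull-down it had 11.78, 11.92 and 12.09, against 10.12, 10.18 and 10.42 in input. Every pull-down array was above its inputs, and the step was smaller with miR-199a-5p (0.58 ± 0.13, a fold of 1.49, adjusted P = 0.00169) than with miR-424-3p (1.69 ± 0.13, a fold of 3.23, adjusted P = 1.01e-07). The scaffold subunit SMARCC2 showed the same order, with 10.23, 10.51 and 10.47 in the miR-199a-5p pull-down, against 9.85, 9.82 and 9.76 in input, a log2 fold change of 0.59 ± 0.12. Its log2 fold change with miR-424-3p was 1.20 ± 0.12, from 10.83, 11.13 and 11.32 in pull-downs, against 9.88, 9.92 and 9.89 in inputs. Its paralog SMARCC1 was not called with either (-0.13 ± 0.14 and -0.05 ± 0.14). A second SMARCC2 probe was not called with miR-199a-5p (-0.04 ± 0.11) and was higher with miR-424-3p (0.49 ± 0.11).

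ARID2 and BRD7, which define the PBAF form, were higher with both: ARID2 by 0.53 ± 0.15 with miR-199a-5p and by 0.63 ± 0.15 with miR-424-3p, and BRD7 by 0.67 ± 0.14 and 0.79 ± 0.14. The ARID2 arrays overlapped with miR-199a-5p, and the second probes of both genes were not called with miR-199a-5p (0.16 ± 0.12 for ARID2 and -0.20 ± 0.10 for BRD7) but were higher with miR-424-3p (0.45 ± 0.12 and 0.35 ± 0.10). BRD9, of the non-canonical form, had 11.56, 11.51 and 11.87 in the miR-199a-5p pull-down, against 11.17, 10.71 and 10.97 in input (0.69 ± 0.14, adjusted P = 0.001), and was not called with miR-424-3p (0.15 ± 0.14). With miR-424-3p the core subunits SMARCD3 (0.91 ± 0.12) and SMARCD1 (0.59 ± 0.10) and the ATPase SMARCA4 (0.56 ± 0.09) were higher, while the alternative ATPase SMARCA2 was not called (-0.24 ± 0.10). The one SWI/SNF gene that was lower was SMARCE1, an HMG-box subunit, with 9.72, 9.59 and 9.76 in the miR-424-3p pull-down, against 10.24, 10.42 and 10.30 in input. These arrays did not overlap, and the log2 fold change was -0.63 ± 0.15 (adjusted P = 0.00202). SMARCB1, a core subunit lost in rhabdoid tumours, was not called by its brightest probe with either bait, but its second probe was lower with both (-0.80 ± 0.15 for miR-199a-5p, and -0.49 ± 0.15 for miR-424-3p, the second call being lost without pull-down 3 or input 1, at -0.61 to -0.37).

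The ISWI ATPases, which space nucleosomes evenly, were called in opposite directions with miR-424-3p. SMARCA1 measured 8.56, 8.29 and 8.40 in that pull-down, against 9.07, 9.17 and 9.01 in input (-0.66 ± 0.10, adjusted P = 8.83e-05). SMARCA5, its paralog, measured 10.98, 10.93 and 10.70, against 10.41, 10.67 and 10.31 in input (0.40 ± 0.15, adjusted P = 0.041). The arrays of both were fully separated, but the SMARCA5 call was lost without miR-199a-5p input 2, miR-424-3p pull-down 1 or 2, or miR-424-3p input 1 or 3 (0.32 to 0.51 over all arrays left out), and its second probe was not called (-0.23 ± 0.13). With miR-199a-5p SMARCA1 was lower as well (-0.31 ± 0.10, adjusted P = 0.0204), a call lost without pull-down array 3 or input array 3, where the smallest change was -0.22. SMARCAD1, a remodeller that acts in DNA repair and silent chromatin, had 8.48, 8.74 and 8.81 in the miR-424-3p pull-down, against 9.17, 9.35 and 9.31 in input (-0.60 ± 0.14). SMARCAL1, which anneals DNA strands at stalled replication forks, moved the other way with the same bait, at 9.90 ± 0.09 in the pull-down, against 9.11 ± 0.07 in input (SD, n = 3), with no overlap (0.78 ± 0.10). Neither was called with miR-199a-5p (0.12 ± 0.14 and -0.09 ± 0.10).

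Of 8 CHD remodellers, miR-199a-5p gave 5 higher and 0 lower calls, and miR-424-3p gave 3 and 2. The shares higher were 62.5% and 37.5%, against 29.9% and 30.3% of all genes. The value furthest above input with miR-199a-5p among the 78 genes was that of CHD9, an ATPase of the CHD6 to CHD9 subfamily. It measured 11.32, 11.09 and 11.33 in the miR-199a-5p pull-down, against 9.99, 10.17 and 10.19 in input, a fold of 2.19 (1.13 ± 0.12, adjusted P = 7.09e-06). In the miR-424-3p pull-down it measured 9.63, 9.47 and 9.80, against 9.82, 10.07 and 10.22 in input (-0.41 ± 0.12, adjusted P = 0.00939). CHD9 was thus above every input with one bait and below every input with the other, although the miR-424-3p call was lost without input array 3 (-0.32). CHD8, a close relative known as a repressor of Wnt target genes, was higher with both baits: 11.71, 11.74 and 12.06 with miR-199a-5p, against 11.12, 11.23 and 11.06 in input (0.70 ± 0.10), and 11.95, 12.02 and 12.13 with miR-424-3p, against 11.07, 10.96 and 11.13 in input (0.98 ± 0.10). The remaining 2 of the subfamily, CHD6 and CHD7 (mutated in CHARGE syndrome), were called with neither.

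CHD1, a remodeller of transcribed genes that binds methylated lysine 4 of histone H3, was higher by 0.79 ± 0.16 with miR-199a-5p and by 0.90 ± 0.16 with miR-424-3p. The arrays stood fully apart in both cases, at 11.61, 11.26 and 11.15 with miR-199a-5p, against 10.45, 10.49 and 10.70 in input, and at 10.99, 11.45 and 11.35 with miR-424-3p, against 10.65, 10.33 and 10.11 in input. CHD1L, a remodeller activated by poly(ADP-ribose), was higher by 0.46 ± 0.15 with miR-199a-5p, a call lost without pull-down 3 or input 2 (0.27 to 0.62), and by 0.71 ± 0.15 with miR-424-3p. CHD4, the main ATPase of the NuRD deacetylase complex, was higher with miR-199a-5p by its brightest probe (0.67 ± 0.10, from 11.36, 11.47 and 11.48, against 10.70, 10.76 and 10.85 in input). With miR-424-3p that probe was not called (0.22 ± 0.10, adjusted P = 0.092) but was called higher with cyclic loess scaling. The second CHD4 probe was not called with miR-199a-5p (-0.06 ± 0.10) and was lower with miR-424-3p (-0.35 ± 0.10). The paralog CHD3, at values near 8, was lower with miR-424-3p (-0.32 ± 0.11, adjusted P = 0.0279), a call lost without pull-down 1 or 2 or input 2 or 3 (-0.38 to -0.27).

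By their brightest probes, all 6 measured ARID genes were higher with miR-199a-5p (29.9% of all genes), within a narrow range of 0.49 to 0.58. With miR-424-3p 5 of the 6 were higher (30.3% of all genes), over a wider range of 0.63 to 1.69. Besides ARID1A and ARID2 the 6 genes were ARID3A, ARID3B, ARID4B and ARID5B. ARID3B, a DNA-binding factor of the Bright family, had 11.30, 11.29 and 11.10 in the miR-199a-5p pull-down, against 10.84, 10.65 and 10.69 in input (0.51 ± 0.11). With miR-424-3p it had 12.14, 12.13 and 12.26, against 10.99, 10.66 and 10.97 in input (1.30 ± 0.11, adjusted P = 1.97e-07). Its paralog ARID3A changed by like amounts with the baits (0.57 ± 0.14 and 0.67 ± 0.14). ARID5B, which directs the demethylase PHF2 to DNA, was higher by 0.52 ± 0.10 with miR-199a-5p and measured 10.37, 10.64 and 10.66 with miR-424-3p, against 9.37, 9.45 and 9.51 in input (1.11 ± 0.10). ARID4B, a subunit of the SIN3 deacetylase complex, was the exception with miR-424-3p (0.16 ± 0.11). It had 3 probes that disagreed with miR-199a-5p: the brightest and the second were higher (0.49 ± 0.11 and 0.54 ± 0.09), and the third was lower (-0.45 ± 0.10, adjusted P = 0.0012), with 7.70, 7.63 and 7.65 in the pull-down, against 7.97, 8.14 and 8.23 in input.

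Methylation of lysine 4 on histone H3 is carried out by KMT2 and SETD1 enzymes. Of the 6 members of this family that were measured, miR-199a-5p gave 2 higher calls and 1 lower (median 0.18), while miR-424-3p gave 5 and 0 (median 0.75). The shares higher were 33.3% and 83.3%, against 29.9% and 30.3% of all genes. SETD1A, which with SETD1B supplies most trimethylation of this residue, measured 11.40, 11.39 and 11.45 in the miR-199a-5p pull-down, against 11.27, 11.24 and 11.09 in input, fully apart but not called (0.21 ± 0.10, adjusted P = 0.0895). In the miR-424-3p pull-down it had 12.76, 12.43 and 12.56, against 11.16, 11.39 and 11.28 in input, a fold of 2.48 (1.31 ± 0.10, adjusted P = 1.24e-07). SETD1B was higher by 0.46 ± 0.09 with miR-199a-5p and had 9.19, 8.93 and 8.94 with miR-424-3p, against 7.99, 7.85 and 7.90 in input (1.11 ± 0.09). KMT2A, the mixed lineage leukaemia gene, was not called with miR-199a-5p, where its arrays overlapped (0.16 ± 0.10). It had 9.41, 9.34 and 9.59 in the miR-424-3p pull-down, against 8.32, 8.45 and 8.41 in input (1.05 ± 0.10, adjusted P = 7.38e-07).

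KMT2C, which places monomethylation at enhancers, was the one gene of the 78 called lower with miR-199a-5p but higher with miR-424-3p. It measured 7.67, 7.70 and 7.73 in the miR-199a-5p pull-down, against 8.30, 8.30 and 8.36 in input (-0.62 ± 0.09, adjusted P = 7.47e-05). In the miR-424-3p pull-down it had 8.44, 8.72 and 8.42, against 8.24, 8.32 and 8.15 in input (0.29 ± 0.09, adjusted P = 0.0156). Pull-down and input arrays were separated in both, and its second probe was called in the same directions (-0.47 ± 0.11 and 0.48 ± 0.11). By the brightest probe the miR-424-3p call was lost without pull-down array 2 or input array 3 (0.20 at the least). The KMT2C values were dim, and its miR-199a-5p pull-downs lay at the floor of the arrays. Over all probes the lowest input mean was 7.70 and the 5th percentile 7.87. KMT2B, a paralog of KMT2A, was higher with both baits (0.56 ± 0.16 and 0.44 ± 0.16), the miR-424-3p call being lost without pull-down 1 or 3 or any one of its inputs (0.34 to 0.52), and KMT2E was called with neither.

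Among 10 other methyltransferase and SETD genes, miR-199a-5p gave 3 higher and 1 lower calls, and miR-424-3p gave 2 and 3. The shares higher were 30% and 20%, against 29.9% and 30.3% of all genes. KMT5B, which methylates lysine 20 of histone H4, had 10.33, 10.26 and 9.95 in the miR-199a-5p pull-down, against 9.30, 9.22 and 9.01 in input, a fold of 2.01 (1.01 ± 0.13, adjusted P = 3.62e-05). Its second probe did not show this (0.13 ± 0.10, adjusted P = 0.287), and with miR-424-3p neither probe was called. SETDB2, which acts on lysine 9 of histone H3, measured 9.47, 9.33 and 9.28 with miR-199a-5p, against 8.90, 9.05 and 8.97 in input (0.39 ± 0.10, adjusted P = 0.00472). With miR-424-3p it measured 8.57, 8.64 and 8.73, against 8.78, 9.09 and 9.04 in input (-0.32 ± 0.10, adjusted P = 0.0125). As for CHD9, the pull-down lay above all inputs with one bait and below all inputs with the other, and the call with miR-424-3p was lost without input array 2 (-0.26). Its relative SETDB1 was called with neither.

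The lowest log2 fold change in either pull-down belonged to SETD9, a SET-domain gene. It averaged 9.01 ± 0.03 in the miR-199a-5p pull-down, against 9.35 ± 0.16 in input (SD, n = 3), with no overlap (-0.34 ± 0.09, adjusted P = 0.00504). In the miR-424-3p pull-down it had 8.07, 8.08 and 8.09, against 9.35, 9.42 and 9.32 in input, so it was 2.43-fold lower (-1.28 ± 0.09, adjusted P = 8.47e-08). SETD6, which methylates the NF-kappaB subunit RELA, was not called with miR-199a-5p (-0.11 ± 0.09) and was lower with miR-424-3p (-0.46 ± 0.09). KMT5A, which monomethylates lysine 20 of histone H4, and SETD4 were higher with miR-424-3p (0.61 ± 0.11 and 0.61 ± 0.10), and KMT5C and SETD2 were called with neither. SETD3, the actin histidine methyltransferase, gave opposite calls by its probes with miR-199a-5p: the bright probe was higher (0.24 ± 0.09, adjusted P = 0.0419), a call lost without pull-down 1 or 2, input 2 or 3, or miR-424-3p pull-down 1 (0.21 to 0.30) and after median scaling, and the dim probe was lower (-0.75 ± 0.08, adjusted P = 5.07e-06). The dim probe measured 7.90, 7.74 and 7.88 in the pull-down, against 8.51, 8.64 and 8.61 in input, and was lower with miR-424-3p too (-0.50 ± 0.08).

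The lysine demethylases, which remove methyl marks, were represented by 14 genes, and among these miR-199a-5p gave 3 higher and 1 lower calls, and miR-424-3p gave 4 and 0. The shares higher, 21.4% and 28.6%, lay below the 29.9% and 30.3% of all genes. KDM7A, which removes methyl groups from lysines 9 and 27 of histone H3, measured 9.06 ± 0.24 in the miR-199a-5p pull-down, against 8.09 ± 0.11 in input (SD, n = 3), with no overlap (0.97 ± 0.11, adjusted P = 1.39e-05). It was also higher with miR-424-3p, by 0.30 ± 0.11 (adjusted P = 0.0337), a call lost without any one of its pull-downs or input 1 or 3 (0.26 to 0.34). KDM5B, a demethylase of lysine 4, had 10.46, 10.09 and 10.50 with miR-199a-5p, against 9.17, 9.58 and 9.76 in input (0.85 ± 0.18, adjusted P = 0.00164), and was not called with miR-424-3p (0.09 ± 0.18), where its arrays overlapped. Its X-linked paralog KDM5C went the other way with miR-199a-5p, at 8.68 ± 0.34, against 9.17 ± 0.17 in input (SD, n = 3). The arrays of KDM5C overlapped, and its call (-0.49 ± 0.16, adjusted P = 0.0209) was lost without pull-down array 2, input array 2 or input array 3 (-0.65 to -0.31).

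KDM1A, the flavin-dependent demethylase LSD1, had 11.96, 12.01 and 11.99 in the miR-199a-5p pull-down, against 11.29, 11.28 and 11.22 in input (0.72 ± 0.11, adjusted P = 9.36e-05), and was not called with miR-424-3p (0.26 ± 0.11, adjusted P = 0.0546), although its arrays were fully apart there and cyclic loess scaling or a replicate block made the call. Its paralog KDM1B was called with neither bait. With miR-424-3p the higher demethylases were, besides KDM7A, KDM2A (0.73 ± 0.13), KDM6A (0.64 ± 0.10) and KDM4D (0.52 ± 0.09), none of which was called with miR-199a-5p (0.30 ± 0.13, -0.21 ± 0.10 and -0.02 ± 0.09). KDM6A removes methylation of lysine 27 of histone H3, KDM2A of lysine 36 and KDM4D of lysine 9. The demethylase genes KDM2B, KDM3A, KDM3B, KDM4A, KDM4B and KDM8 were called with neither bait.

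Among 8 lysine acetyltransferases, miR-199a-5p gave 2 higher and 1 lower calls, and miR-424-3p gave 3 and 2. The shares higher were 25% and 37.5%, against 29.9% and 30.3% of all genes. The paralogs KAT6A and KAT6B, catalytic subunits of the MOZ/MORF complexes, were higher with both microRNAs. KAT6A measured 11.56, 11.29 and 11.91 with miR-199a-5p, against 10.60, 10.93 and 10.91 in input (0.78 ± 0.15), and 12.05, 11.89 and 12.03 with miR-424-3p, against 10.49, 10.69 and 10.85 in input (1.31 ± 0.15). KAT6B was higher by 0.36 ± 0.10 with miR-199a-5p and by 0.76 ± 0.10 with miR-424-3p. KAT14, a subunit of the ATAC acetyltransferase complex, was lower with both: 10.01, 10.24 and 10.26 with miR-199a-5p, against 10.71, 10.68 and 10.67 in input (-0.52 ± 0.09), and 10.04, 9.83 and 10.05 with miR-424-3p, against 10.57, 10.68 and 10.70 in input (-0.68 ± 0.09). All pull-down arrays of KAT14 lay below all inputs. KAT8, the acetyltransferase of lysine 16 on histone H4, stood above its inputs with miR-199a-5p (8.89, 8.89 and 9.34, against 8.76, 8.78 and 8.69), without passing the test (0.30 ± 0.13, adjusted P = 0.0706). It was lower with miR-424-3p, at 8.47, 8.31 and 8.32, against 8.96, 8.70 and 9.15 in input (-0.57 ± 0.13, adjusted P = 0.00187). KAT7, of the HBO1 complex, was higher with miR-424-3p (0.43 ± 0.11), and the coactivators KAT2A, KAT2B and KAT5 were called with neither by their brightest probes.

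Of the 7 histone deacetylases, which remove acetyl marks, 1 was higher and 0 lower with miR-199a-5p, while miR-424-3p gave 3 higher and 1 lower. The shares higher were 14.3% and 42.9%, against 29.9% and 30.3% of all genes. HDAC4, a class IIa deacetylase that shuttles between nucleus and cytoplasm, was the one called with both. It measured 8.33, 8.26 and 8.09 with miR-199a-5p, against 7.80, 7.75 and 7.71 in input (0.47 ± 0.10), and 8.47, 8.74 and 8.36 with miR-424-3p, against 7.87, 7.83 and 7.78 in input (0.70 ± 0.10). The HDAC4 inputs lay near the floor of the arrays, where the lowest input mean of any probe was 7.70. HDAC7, of the same class, was not called with miR-199a-5p (-0.03 ± 0.11) and was higher with miR-424-3p (0.58 ± 0.11). Of the class I pair HDAC1 and HDAC2, catalytic subunits of NuRD, SIN3 and CoREST, HDAC2 was higher with miR-424-3p (0.45 ± 0.15, adjusted P = 0.0185), a call lost without pull-down 2 or input 1 or 3 (0.34 to 0.59), and HDAC1 was not called (-0.13 ± 0.15). HDAC3, the deacetylase of the NCoR complex, was lower with miR-424-3p (-0.41 ± 0.12, adjusted P = 0.00834), a call lost without pull-down array 3 (-0.30). HDAC6 and HDAC8 were called with neither.

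The bromodomain genes outside SWI/SNF were BRD2, BRD3 and BRD10. BRD2, a BET protein that reads acetylated histones, was not called with miR-199a-5p (0.16 ± 0.13) and was higher with miR-424-3p (13.77, 13.81 and 13.90, against 13.21, 12.93 and 13.28 in input, 0.68 ± 0.13). BRD10 was higher with miR-424-3p (0.35 ± 0.08), and BRD3 was called with neither. The name rule also took in a non-coding transcript and a pseudogene. BRD3OS, transcribed opposite BRD3, was higher with miR-424-3p (0.61 ± 0.11), and BRD7P3 was lower with miR-199a-5p, at 8.65, 8.59 and 8.56, against 9.47, 9.29 and 9.90 in input (-0.96 ± 0.14, adjusted P = 4.44e-05). The BRD7P3 probe may share sequence with BRD7, which was higher in that pull-down, so its identity is uncertain. Without these transcripts the counts were 25 higher and 5 lower of 76 with miR-199a-5p, and 34 higher and 11 lower with miR-424-3p.

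Both baits were then set side by side in each gene. In 16 of 78 genes (20.5%) the transcript was higher with both, against 14.1% of all genes, and in 3 genes it was lower with both (KAT14, SETD9 and SMARCA1), against 11.5% of all genes. Directions were opposite in 3 genes (CHD9, SETDB2 and KMT2C), against 6.05% of all genes. In neither pull-down 23 genes were called (29.5%, against 25.6% of all genes), and 33 were called in a single pull-down. With miR-199a-5p alone 7 were higher and 2 lower, against 12.5% and 5.89% of all genes. With miR-424-3p alone 18 were higher and 6 lower, against 13.5% and 10.9% of all genes. Over the 78 genes the 2 sets of log2 fold changes, which share no arrays, had a Pearson correlation of 0.42 and a Spearman correlation of 0.47, beside 0.45 and 0.42 over all 9647 genes. These are descriptions across genes measured on the same arrays, and genes are not independent replicates.

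**Figure D3:**
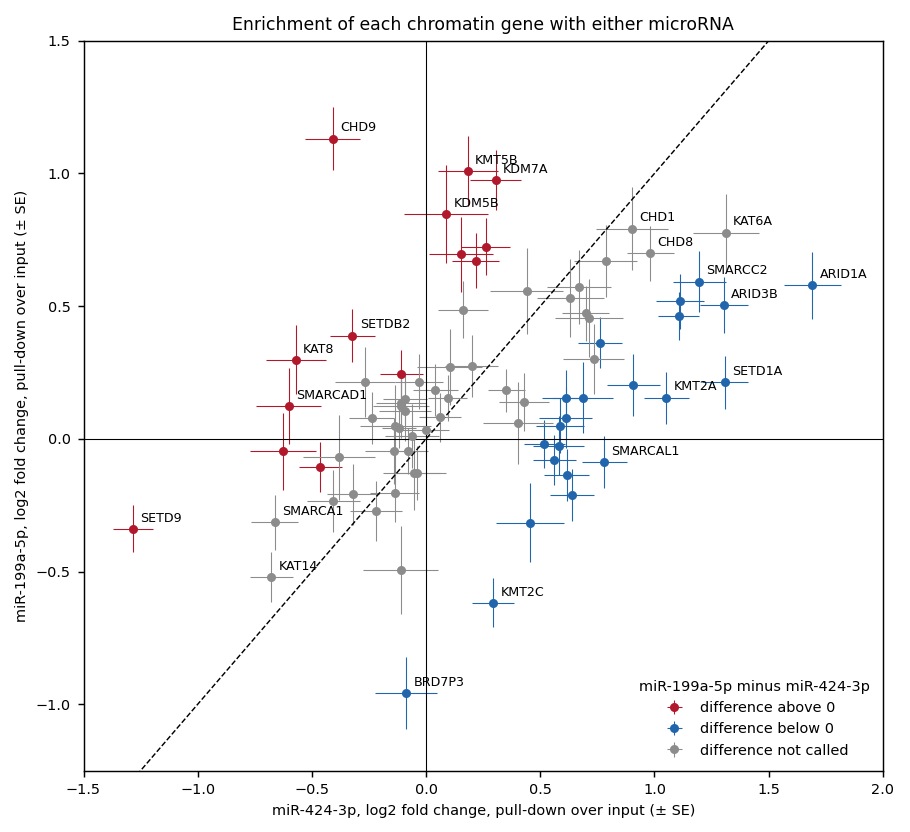
Log2 fold change of each of the 78 genes with miR-199a-5p (y axis) and with miR-424-3p (x axis), with standard errors, coloured by the test of the difference between them, and a dashed line where both are equal. CHD9 (1.13 and -0.41) lies far above the line, and ARID1A (0.58 and 1.69) and SETD1A (0.21 and 1.31) far below it.

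The difference of the enrichments, miR-199a-5p minus miR-424-3p, was tested in the same model. It was above 0 in 14 chromatin genes and below 0 in 22, against 20.9% and 18.1% of all genes. The numbers were 9 and 24 with cyclic loess and 10 and 23 with median scaling. Thus 27.3% and 30.3% of the called differences were above 0, against 38.9% as deposited. The count above 0 fell to between 7 and 13 when single arrays were left out. It was 7 without miR-199a-5p input 2 or miR-424-3p pull-down 2, and 8 without miR-424-3p input 3. Without miR-424-3p pull-down 1 or input 2 it was 9. Over the alternatives other than leaving out arrays it ranged from 8 to 18, and the count below 0 from 14 to 26. The largest values toward miR-199a-5p were those of CHD9 (1.54 ± 0.17, adjusted P = 2.33e-05), SETD9 (0.94 ± 0.12), KAT8 (0.87 ± 0.18), KMT5B (0.83 ± 0.19), KDM5B (0.76 ± 0.26) and SMARCAD1 (0.73 ± 0.20). SETD9 was lower than input with both baits, by more with miR-424-3p. KAT8 and SMARCAD1 were not called with miR-199a-5p and were lower with miR-424-3p (-0.57 and -0.60). The KDM5B difference was lost in 8 of the 12 fits that left out an array (0.59 to 0.91) and with cyclic loess. Toward miR-424-3p the largest were ARID1A (-1.11 ± 0.18, adjusted P = 0.000251), SETD1A (-1.10 ± 0.14), KMT2C (-0.91 ± 0.13), KMT2A (-0.90 ± 0.14), BRD7P3 (-0.87 ± 0.19) and SMARCAL1 (-0.87 ± 0.14). BRD7P3 was not called with miR-424-3p and was lower with miR-199a-5p (-0.96). By role, 4 of the 6 members of the H3K4 methyltransferase family had differences below 0 and 0 above. Of the 12 SWI/SNF genes 5 had differences below 0 and 2 above (BRD9 and SMARCE1). The BRD9 difference was lost in 8 and the SMARCE1 difference in 9 of the 12 fits that left out an array. Both were also lost with median scaling and with cyclic loess. Of the 10 other methyltransferase and SETD genes 5 had differences above 0 (KMT5B, SETD3, SETD6, SETD9 and SETDB2) and 2 below (KMT5A and SETD4), and those of SETD3 and SETD6 were lost under both other scalings. Of the 16 genes higher with both baits, 7 had a called difference. The matching share among all genes higher with both was not computed, so this count is a description only.

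**Figure D4:**
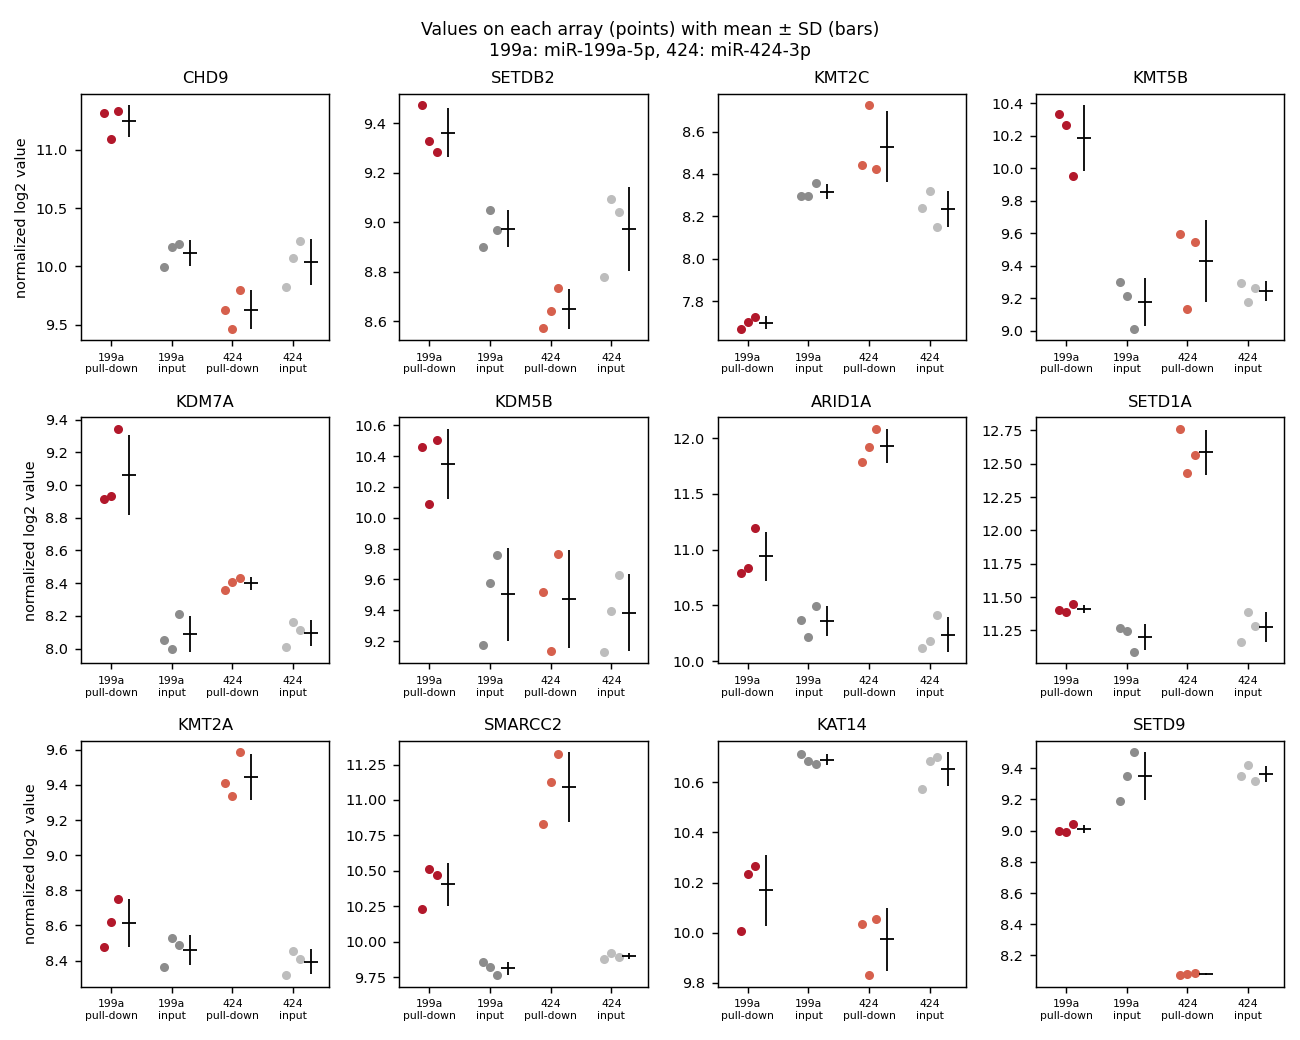
Normalized log2 value on each array (points) with the mean and SD (bars, n = 3) of 12 genes, with each pull-down left of its input, and a separate y axis for each gene that does not start at 0. CHD9 stood above its inputs with miR-199a-5p and below them with miR-424-3p, KMT2C the reverse, and KAT14 and SETD9 lay below their inputs in both pull-downs.

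The inputs of the cells given either duplex were compared to see whether levels in the cells differed. In this two-sided test 0 of the 78 genes were called in either direction by limma, against 0.0104% of all genes in each direction, and 4 had an unadjusted P under 0.05. The largest difference was that of SMARCA1, at 9.44, 9.43 and 9.70 in the miR-199a-5p inputs, against 9.07, 9.17 and 9.01 in the miR-424-3p inputs (0.44 ± 0.10, adjusted P = 0.25). With array weights in the fit SMARCA1 was called (0.39 ± 0.08, adjusted P = 0.0294). In bulk RNA of one cell line, a change in every cell and a change in some of the cells cannot be told apart.

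Probes of the same gene often disagreed. Of the 7 genes with several probes whose brightest one was higher with miR-199a-5p, another probe was also higher in 1 (ARID4B), and the corresponding number with miR-424-3p was 5 of 7 (ARID2, BRD7, KMT2C, SMARCC2 and SMARCD3). Among the 16 probes that were not the brightest of their gene, 12 had a smaller log2 fold change than the brightest in the miR-199a-5p comparison and 13 in that of miR-424-3p. The brightest probe was chosen by a mean that includes the pull-downs, and which transcript forms each probe reads was not examined. SMARCA5 was not called by its brightest probe with miR-199a-5p (0.06 ± 0.15) and was lower by its other probe (-0.76 ± 0.13), and so was KAT5 (-0.13 ± 0.10 by the brightest and -0.36 ± 0.08 by the other). Both KMT2C probes were lower with miR-199a-5p, and both SMARCA1 probes were lower with miR-424-3p, although the call of the second (-0.26) was lost without any one miR-424-3p array and with cyclic loess.

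**Figure D5:**
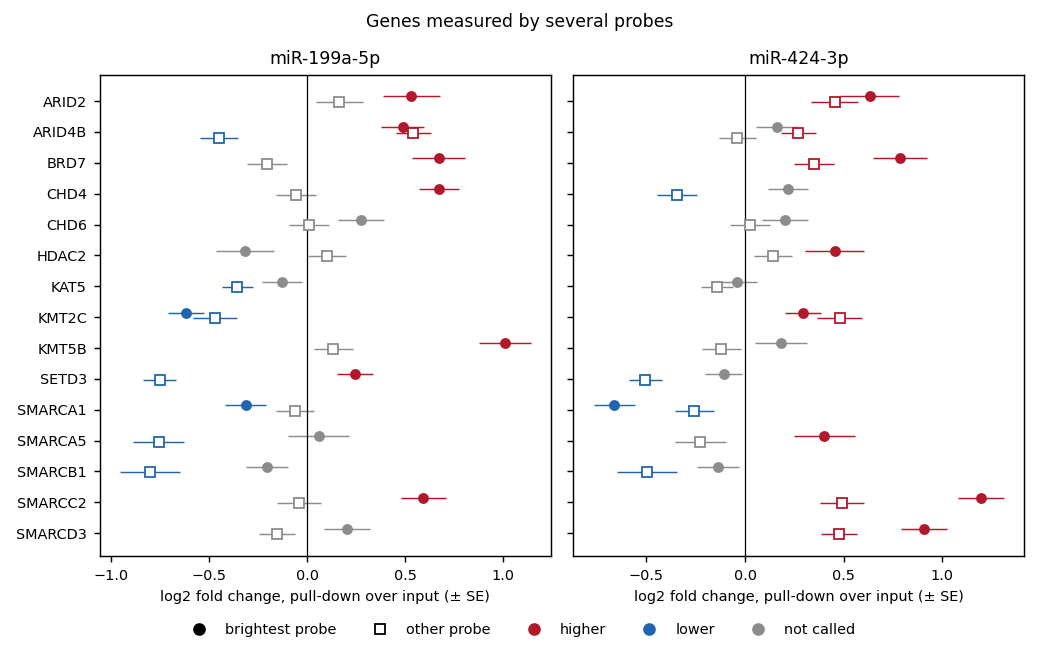
Log2 fold change (x axis) with standard error for every probe of the 15 genes that had several, with filled circles for the brightest probe and open squares for the others, coloured by call. ARID4B and SETD3 carry both a higher and a lower call with miR-199a-5p (left), and no gene does with miR-424-3p (right).

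Partner subunits and enzymes outside the name rule were examined as 12 lists with 172 measured genes, among which miR-199a-5p gave 54 higher and 44 lower calls (31.4% and 25.6%), and miR-424-3p 62 and 40 (36% and 23.3%). Beside these totals and the count of each list below stand the shares of all genes. They were 29.9% higher and 20.1% lower with miR-199a-5p, and 30.3% and 25.7% with miR-424-3p. Genes named from a list are among its largest called changes and do not stand for the whole list. Partners of the deacetylases in CoREST and NCoR were higher in 5 and lower in 1 of 10 after capture by miR-199a-5p, and in 8 and 0 by miR-424-3p (median 0.65). Among them PHF21A, a reader of unmethylated lysine 4, reached 1.81 ± 0.11 with miR-424-3p, and RCOR3, a CoREST scaffold, was higher with both (0.58 ± 0.10 and 1.25 ± 0.10). Of 14 COMPASS partners of the KMT2 and SETD1 enzymes, miR-199a-5p gave 3 higher and 2 lower calls, and miR-424-3p gave 8 and 3. The shared subunit DPY30 was lower with both (-0.83 ± 0.12 and -1.48 ± 0.12), PAXIP1 and NCOA6, which join KMT2C in its complex, were higher with miR-424-3p (1.64 ± 0.08 and 1.48 ± 0.11), and WDR5, the core adaptor, was higher with miR-199a-5p (0.94 ± 0.16).

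Of 12 SWI/SNF subunits outside the name rule, miR-199a-5p gave 4 higher and 4 lower calls, and miR-424-3p gave 4 and 2. BICRAL, of the BRD9-containing form, was higher with both (0.78 ± 0.09 and 1.79 ± 0.09), and PHF10, of the PBAF form, was lower with both (-1.03 ± 0.11 and -1.02 ± 0.11), unlike ARID2 and BRD7. Acetyltransferases and partners outside the rule (34 genes) were higher in 11 and lower in 10 after capture by miR-199a-5p, and in 13 and 7 by miR-424-3p, where the paralogous coactivators EP300 (1.92 ± 0.10) and CREBBP (1.49 ± 0.11) had the largest gains. NuRD and SIN3 partners (19 genes) were higher in 5 and lower in 5 after capture by miR-199a-5p, and in 8 and 4 by miR-424-3p, with MTA2 at 1.28 ± 0.12 and SAP130 at 1.26 ± 0.10.

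Polycomb genes, which maintain repression through lysine 27 of histone H3, were higher in 10 and lower in 5 of 23 after capture by miR-199a-5p, and in 7 and 5 by miR-424-3p. SCMH1 was higher with both (1.30 ± 0.10 and 1.65 ± 0.10), and PCGF6 was lower with both (-1.12 ± 0.13 and -1.19 ± 0.13). Arginine methyltransferases and their cofactors (9 genes) were higher in 0 and lower in 4 after capture by miR-199a-5p, and in 2 and 4 by miR-424-3p. PRMT1, the main enzyme of this class, was lower with both (-1.21 ± 0.14 and -1.06 ± 0.14). PRMT5, which makes symmetric dimethylarginine, was lower with miR-199a-5p (-0.52 ± 0.12) but higher with miR-424-3p (0.66 ± 0.12). INO80, SRCAP and EP400 remodellers (18 genes) were higher in 6 and lower in 7 after capture by miR-199a-5p, and in 4 and 5 by miR-424-3p. Within INO80 itself the subunit INO80D was higher with both baits (1.13 ± 0.10 and 1.30 ± 0.10) and INO80E was lower with both (-1.23 ± 0.12 and -1.20 ± 0.12). The remaining lists, with 13 other lysine methyltransferases, 9 ISWI and other remodelling partners, 6 other demethylases and 5 sirtuins, had at most 5 genes called in one direction.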

How the data were processed

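HEK293T pull-down and input RNA was hybridised to Illumina HT-12 arrays. The deposited values are on a log2 scale, and the authors obtained them with lumi (version 2.2.1 in the submitters' processing notes) by background adjustment, a variance-stabilizing transformation and robust spline normalization. The transformation compresses low signals, and the normalization makes every difference relative to the bulk of probes. A table of signals before normalization held 24 columns of per-sample values that match no sample label and was not used. Depth has no counterpart on arrays, and 3 arrays per group limit the precision. Genome coordinates of probes were not used here.

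Probes were named from the platform annotation (12432 with 1 symbol, 2 with several, 2895 with none). All 78 chromatin genes were found by identifier in RefSeq, which changed 0 symbols, and each gene took its brightest probe. All 12 arrays and 15329 probes entered one limma fit with a mean for each of the 4 groups (limma version 3.58.1, R 4.3.3, lmFit and eBayes, 8 residual degrees of freedom). One-sided tests in each tail were used for each pull-down and for the difference, a two-sided test for the inputs, with Benjamini-Hochberg adjustment over all probes and a threshold of 0.05. The script was tested on simulated data. Named genes were the 10 largest higher and 8 largest lower calls per pull-down with fully separated arrays, the 6 largest each way for the difference, paralogs or probes called in opposite directions, and up to 4 per list of other chromatin genes. Other genes were chosen after their values were seen: SETDB2, and those given to complete a role group or paralog set. Members and lists were chosen with earlier results of these data known, and role groups were drawn up after the values were seen.

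Alternatives were median scaling, cyclic loess, array weights, a mean of at least 9, a replicate block, fitting the compared groups alone, two-sided tests, a fold of at least 1.5, the mean over probes and leaving out each array.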

Additional observations from a re-analysis of the deposited data

Results flagged for a closer look

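In 36 of the 78 genes the effect of the pull-down differed between the microRNAs by the test of the difference itself (miR-199a-5p minus miR-424-3p, limma, one-sided). The difference was above 0 in 14 genes (17.9%) and below 0 in 22 (28.2%), against 20.9% and 18.1% of all genes. Given here are the 6 with the largest differences in each direction and SETDB2, which with CHD9 and KMT2C was called in opposite directions by the baits. Above 0 were CHD9 (1.54, adjusted P = 2.33e-05), SETD9 (0.94, 9.54e-05), KAT8 (0.87, 0.00252), KMT5B (0.83, 0.00372), KDM5B (0.76, 0.0341), SMARCAD1 (0.73, 0.0124) and SETDB2 (0.71, 0.00156). Below 0 were ARID1A (-1.11, 0.000251), SETD1A (-1.10, 4.01e-05), KMT2C (-0.91, 0.000106), KMT2A (-0.90, 0.00019), BRD7P3 (-0.87, 0.00271) and SMARCAL1 (-0.87, 0.000272). CHD9 and SETDB2 were higher than input with miR-199a-5p but lower with miR-424-3p, and KMT2C the reverse. Such opposite calls were made in 3 of the 78 genes (3.85%), against 6.05% of all genes. The miR-424-3p call of each was lost when a single array was left out. That array was input 3 for CHD9, input 2 for SETDB2, and pull-down 2 or input 3 for KMT2C. The KDM5B difference was lost in 8 of the fits that left out an array (0.59 to 0.91) and with cyclic loess, and the KMT5B difference was not called by its second probe (0.25, adjusted P = 0.173). The groups of 3 arrays were too small for a test of outlying arrays.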

How the results depend on the processing

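Among the 78 genes, their 16 other probes and the named genes of the other lists, no call reversed its direction under median scaling, cyclic loess, the replicate block or the loss of any array. With a fold of at least 1.5 required, 12 higher and 2 lower calls were left with miR-199a-5p, 5 lower with miR-424-3p, and 8 differences above 0. With only probes of a mean of at least 9 (47 genes tested), 21 higher and 7 lower calls were made with miR-424-3p, and 8 differences above and 14 below 0. Cyclic loess gave 9 differences above and 24 below 0, and median scaling 10 and 23, so that the share above 0 was 27.3% and 30.3%, against 38.9% with the deposited scaling. Over all alternatives other than leaving out arrays, 8 to 18 differences were above 0 and 14 to 26 below. Array weights gave 1 call between the inputs (SMARCA1). Leaving out single arrays gave 23 to 26 higher and 4 to 8 lower calls with miR-199a-5p, 31 to 35 and 9 to 14 with miR-424-3p, 7 to 13 and 19 to 22 for the difference, and 0 between the inputs. Of the calls, 27 of 31, 37 of 46 and 25 of 36 were made without any one array. Calls were gained with cyclic loess by BRD10, CHD6, KMT5C and SETD1A (higher) and KDM6A (lower) with miR-199a-5p and by CHD4 and KDM1A (higher) with miR-424-3p, and with median scaling by KDM4A (lower) with miR-199a-5p. Same-numbered pull-downs and inputs of one microRNA deviated at correlations of -0.10 to 0.26, above 0.1 in 2 of 6 pairs, and same-numbered arrays of different microRNAs at 0.00 to 0.51, above 0.1 in 8 of 12. Over all 18 such pairs 17 were above 0 and 10 above 0.1, against 13 and 4 of 36 pairs with different numbers. Deviations were taken from group means, so positive same-numbered pairs push the other pairs below 0. The 36 pairs are therefore not an independent reference for the 18. The labels do not say that a number marks a shared culture, and not every pair was above 0.1, so the numbers were not taken as pairs. The replicate block gave 25 higher and 6 lower calls with miR-199a-5p (all of them shared with the fit without it), 36 and 13 with miR-424-3p (35 and 11 shared), and 13 and 23 for the difference (12 and 22 shared), with 0 between the inputs. With it KDM1A (higher), KDM3B and HDAC8 (both lower) were gained with miR-424-3p, the differences of KAT6A (below 0) and HDAC8 (above 0) were gained, and those of SETD3 and SETD6 were lost. Normalization from raw signals, a filter on detection p-values and slide as a block were not run, since the columns that hold them match no sample label or none gives slides. Dim probes, with values near 8, limit what the arrays show, since their changes are compressed.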
